A study of Mus musculus with 8 samples.

Results

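The clock output regulators, 10 genes that carry the rhythm of the circadian clock to other genes, were followed in mouse liver after removal of the corepressor NCOR. They were chosen by name as 3 kinds of clock output: the factors that act at D-boxes (Nfil3, Dbp, Tef and Hlf), the DEC repressors (Bhlhe40 and Bhlhe41) and other direct outputs (Ciart, Usp2, Wee1 and Nampt). All 10 were measured among 22180 genes, each on the brightest probe set annotated to that gene alone. Tef had 2 such probe sets and the other 9 genes had 1. Liver RNA came from 3-month-old mice on normal chow that had been given adeno-associated virus (AAV) by vein. In the 4 NCOR KO mice the virus carried Cre recombinase, which cuts out floxed DNA, and in the 4 WT mice it carried GFP, so an effect of Cre and the loss of NCOR cannot be told apart. The study's design describes all mice as NCOR floxed, yet the sample labels name the controls wild-type, and the promoter that drove Cre is not given in the sources used here. All livers were frozen 2 weeks after injection, at 5 pm, which is zeitgeber time 10 (ZT10, hours after lights on).

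In the clock, the activators BMAL1 (Arntl) and CLOCK bind E-boxes and drive the genes of their own repressors, while the REV-ERB repressors and ROR activators compete at a second element, the RORE, through which Arntl and Nfil3 are timed. NCOR is the corepressor that REV-ERB recruits together with the deacetylase HDAC3. The PAR bZIP activators DBP, TEF and HLF and the repressor NFIL3 (also called E4BP4) bind the same D-box sequence with opposite effect, and in liver they pass the rhythm on to genes of detoxification and lipid metabolism. Time of day sets all of these transcripts, and with 1 time point a change in level and a change in phase cannot be told apart.

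The median intensity of the 8 arrays lay between 41.0 and 44.1, and their number limits the precision of every value. Across genes, which are no replicates of each other, arrays correlated at 0.994 to 0.997 within a group and at 0.992 to 0.996 between groups. WT replicate 2 and NCOR KO replicate 1 stood at one end of the second principal component, which held 20.4% of the variance. Hepatocyte markers were bright, with a summed intensity of 52414 to 53864 in NCOR KO livers and 52017 to 53991 in WT livers over 7 genes. Values for the targeted gene were not analysed here, so the labels were not checked against it. The labels call the replicates biological without naming the animals, so each p-value reflects the scatter among these 8 samples, some of which may be technical. Below, a level is a log2 intensity, a change is the NCOR KO mean minus the WT mean on that scale with its standard error (SE), and the adjusted p is limma's after Benjamini-Hochberg adjustment over all genes, with a threshold of 0.05.

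One of the 10 genes passed that threshold, and it was higher in NCOR KO livers: Nfil3. The other 9 did not pass. Across all genes 1.65% passed, 0.816% higher and 0.834% lower. The change was below 0 for 7 of the 10 and above 0 for 3, where 48.0% of all genes were below 0. The median change was -0.16, against 0.01 over all genes. The 4 NCOR KO values lay wholly apart from the 4 WT values for 2 of the 10, Nfil3 and Tef, as they did for 10.4% of all genes. All 10 were at or above the level of the median gene, 5.88, and only Bhlhe41, at 6.05, was close to it.

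**Figure D1:**
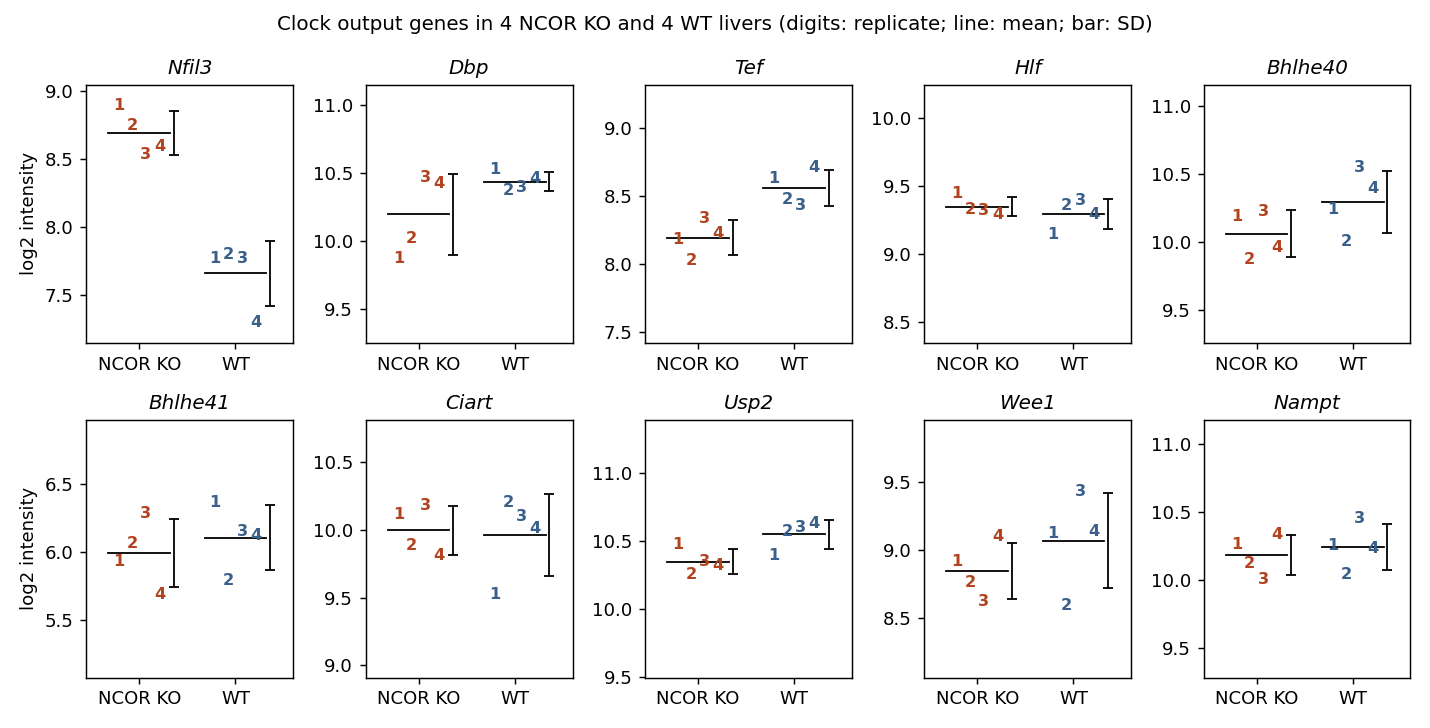
Log2 intensity (vertical axis, the same span in every panel) of the 10 clock output genes in 4 NCOR KO livers (left) and 4 WT livers (right); each digit is 1 array, numbered by replicate, lines are means and bars are SDs. Nfil3 and Tef are the genes whose groups do not overlap, and Dbp is split within the NCOR KO group, with replicates 1 and 2 below every WT value.

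Nfil3 encodes the repressor of the D-box pathway. Its level was 8.90, 8.75, 8.54 and 8.59 in NCOR KO replicates 1 to 4, against 7.77, 7.80, 7.77 and 7.30 in WT replicates 1 to 4. Every NCOR KO liver was above every WT liver, and WT replicate 4 lay well below the other WT livers. The means were 8.69 ± 0.16 in NCOR KO livers and 7.66 ± 0.24 in WT livers (SD, n = 4 each). The change was 1.03 ± 0.12 (SE), a 2.05-fold rise, with a limma adjusted p of 0.00338 and a 95% interval of 0.77 to 1.30. The exact two-sided permutation p of this difference was 0.0286, the smallest that 70 assignments of 4 and 4 allow. Without WT replicate 4 the change was 0.91, and the gene passed under all 16 alternative settings, with adjusted p-values from 0.00129 to 0.0197.

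The RefSeq promoter window of Nfil3, from 250 bases before to 50 after an annotated start, is shown because it holds the core of an RORE. It lies at chr13:52980990-52981289 on the minus strand of GRCm38.p6 and is written 5′ to 3′ along the gene, with the match in capitals. The whole window lies inside the annotated gene, whose 5′ end at 52982878 had no window. The core searched was TAGGTCA on either strand, and here it reads TGACCTA, beginning 12 bases before the start used for the window.
Nfil3: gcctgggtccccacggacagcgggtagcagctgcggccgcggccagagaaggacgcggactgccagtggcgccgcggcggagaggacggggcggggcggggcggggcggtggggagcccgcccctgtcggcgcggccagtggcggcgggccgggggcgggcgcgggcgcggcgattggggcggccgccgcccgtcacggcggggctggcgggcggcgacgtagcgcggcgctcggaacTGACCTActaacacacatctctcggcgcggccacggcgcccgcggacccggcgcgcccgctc
That core was found in 2.61% of 32851 windows of this length. Of the 8 clock output genes with a window in the table only Nfil3 held it, and among 10 core clock genes with a window only Arntl did. A match is a description of letters and was not tested as a binding site.

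NFIL3 is also made by immune cells, so their markers were set beside this rise. Natural killer cell markers were dim, with 5 of 5 not passing and a summed intensity of 118 to 127 in NCOR KO livers and 115 to 128 in WT livers. Neutrophil markers were dim too, with 5 of 5 not passing and sums of 88.8 to 98.1 in NCOR KO livers and 90.4 to 104 in WT livers. Kupffer cell and macrophage markers had 6 of 6 not passing, with sums of 2309 to 4082 in NCOR KO livers and 1924 to 3749 in WT livers. Of 5 lymphocyte markers 3 did not pass and 2 rose, Cd3e of T cells (0.47 ± 0.09, limma adjusted p = 0.0373) and Cd79a of B cells (0.41 ± 0.07, limma adjusted p = 0.0173), calls lost in 10 and 4 of 15 alternative settings. Against the median gene at 5.88, Cd79a was lower in both groups, while Cd3e was higher in NCOR KO livers and lower in WT livers. Cd3e was at 6.03 in NCOR KO livers and 5.57 in WT livers, and Cd79a at 5.49 and 5.08. The summed intensity of all 5 was 290 to 341 in NCOR KO livers and 257 to 306 in WT livers, and the part of immune cells in the Nfil3 result was not tested. Of 4 cholangiocyte markers 3 did not pass and Epcam rose (0.41 ± 0.09, limma adjusted p = 0.0452). Their sums were 350 to 419 in NCOR KO livers and 302 to 318 in WT livers. Endothelial markers had 6 of 6 not passing, yet all 6 changes were above 0, with a median of 0.25. Stellate cell markers had 6 of 6 not passing, with 4 changes above 0 and 2 below. In whole liver, a change in the number of cells of a type and a change in RNA per cell cannot be told apart.

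By Pearson correlation of the level over the 8 arrays, the genes most like Nfil3 among 11090 at or above the median level were Desi2 (0.989), Cyp3a44 (0.984) and the pantetheinase gene Vnn1 (0.981). This likeness includes the difference between the groups. Each of them was itself higher in NCOR KO livers, Desi2 by 0.52 ± 0.07 (limma adjusted p = 0.00879), Cyp3a44 by 0.71 ± 0.08 (limma adjusted p = 0.00200) and Vnn1 by 1.34 ± 0.11 (limma adjusted p = 3.23e-04). Cyp3a genes are close in sequence, so the signal of a single Cyp3a probe set is uncertain.

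None of the PAR bZIP activator genes, whose products read the same D-box, passed the threshold. Tef, whose product drives D-box genes, had levels of 8.18, 8.03, 8.34 and 8.22 in NCOR KO livers, against 8.63, 8.47, 8.43 and 8.71 in WT livers. All 4 NCOR KO values were below all 4 WT values, a separation in this direction that 5.49% of all genes showed. The means were 8.19 ± 0.13 in NCOR KO livers and 8.56 ± 0.13 in WT livers (SD, n = 4 each). The change was -0.37 ± 0.09 (SE), with a 95% interval of -0.56 to -0.18, and it missed the threshold at a limma adjusted p of 0.0660. It passed when each array was centred on its median (-0.41, limma adjusted p = 0.0352) and when genes dimmer than the median gene were left out (limma adjusted p = 0.0414). The second Tef probe set was dim, at 5.78 in NCOR KO livers and 5.71 in WT livers, and differed by 0.075 ± 0.11 (limma adjusted p = 0.788), so the 2 probe sets did not show the same change, and the mean of both gave -0.15 (limma adjusted p = 0.391).

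Dbp, one of the most strongly rhythmic transcripts of liver, had levels of 9.87, 10.02, 10.47 and 10.42 in NCOR KO livers, against 10.53, 10.37, 10.39 and 10.46 in WT livers. NCOR KO replicates 1 and 2 were below every WT liver, while replicates 3 and 4 fell within the WT range. The NCOR KO livers spanned 0.60 and the WT livers 0.15. The change was -0.24 ± 0.13 (SE), with a limma adjusted p of 0.383 and a 95% interval of -0.52 to 0.04. It was -0.13 without NCOR KO replicate 1 and -0.33 without NCOR KO replicate 3.

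Hlf, the third PAR bZIP gene, had levels of 9.45, 9.33, 9.32 and 9.29 in NCOR KO livers, against 9.14, 9.36, 9.39 and 9.29 in WT livers. The groups overlapped, with NCOR KO replicate 1 the highest of the 8 and WT replicate 1 the lowest. The change was 0.05 ± 0.07 (SE), with a limma adjusted p of 0.768 and a 95% interval of -0.10 to 0.21. That interval bounds any difference in Hlf at this time of day, and a p that misses the threshold does not show that the groups were alike.

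The letters of the 2 Tef promoter windows and that of Ciart are shown for their E-boxes, the sites of BMAL1 and CLOCK. They come from RefSeq on GRCm38.p6, at chr15:81802423-81802722 and chr15:81811164-81811463 on the plus strand for Tef and at chr3:95882179-95882478 on the minus strand for Ciart. Capitals mark the E-box CACGTG, which reads the same on both strands.
Tef, first start: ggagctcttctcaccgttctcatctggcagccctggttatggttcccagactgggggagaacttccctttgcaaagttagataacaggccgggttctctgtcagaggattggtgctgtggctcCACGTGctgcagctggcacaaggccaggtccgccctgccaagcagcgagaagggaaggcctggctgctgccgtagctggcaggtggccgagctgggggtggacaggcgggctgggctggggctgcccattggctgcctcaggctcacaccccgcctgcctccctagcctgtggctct
Tef, second start: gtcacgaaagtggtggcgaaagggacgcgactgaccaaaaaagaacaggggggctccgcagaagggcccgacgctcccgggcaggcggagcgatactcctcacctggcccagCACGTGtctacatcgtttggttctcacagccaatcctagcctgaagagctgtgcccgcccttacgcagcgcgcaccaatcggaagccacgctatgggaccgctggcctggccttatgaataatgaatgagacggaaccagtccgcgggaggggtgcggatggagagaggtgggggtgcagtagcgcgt
Ciart: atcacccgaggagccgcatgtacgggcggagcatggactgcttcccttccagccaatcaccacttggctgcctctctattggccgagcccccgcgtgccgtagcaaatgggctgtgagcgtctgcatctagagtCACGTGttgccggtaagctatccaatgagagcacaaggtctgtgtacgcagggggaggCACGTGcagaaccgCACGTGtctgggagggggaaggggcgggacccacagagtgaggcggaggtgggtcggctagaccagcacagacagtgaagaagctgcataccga
Each Tef window held 1 E-box and the Ciart window held 3. Of the 8 clock output genes with a window, 3 held an E-box (Tef, Ciart and Bhlhe41), as did 7.15% of all windows. None of the 8 held a D-box, searched as TTATGTAA and TTACGTAA and found in 1.06% of windows, or the variant CACGTT, found in 4.68%. Like that of Nfil3, the Usp2 window (chr9:44084670-44084969, plus strand) lies inside the annotated gene, which begins at 44067021, so these counts do not cover every start.

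**Figure D2:**
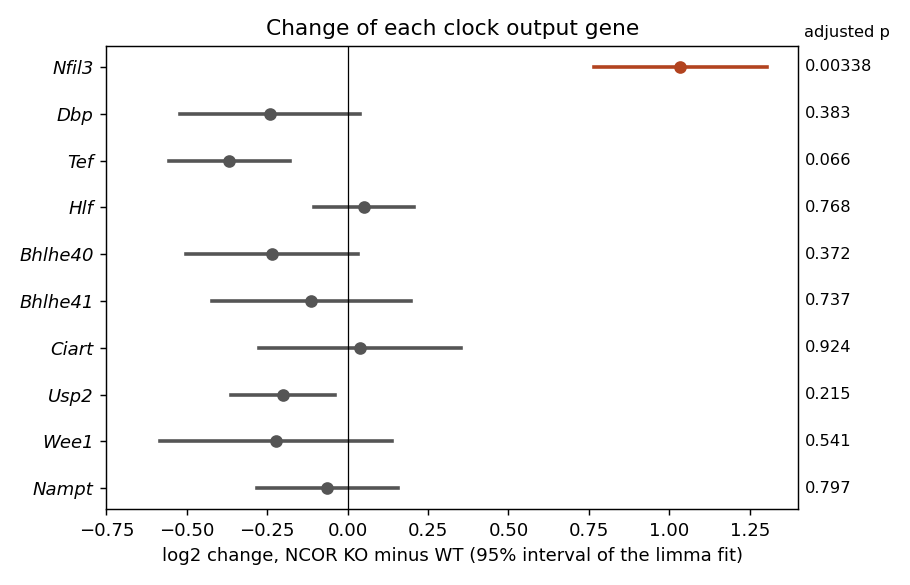
Change of each clock output gene (points, NCOR KO minus WT, log2 scale) with the 95% interval of the limma fit over 4 and 4 livers; the column at the right gives the adjusted p over all genes. Nfil3 stands at 1.03, and the other 9 intervals all lie between -0.58 and 0.35.

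The DEC repressors bind E-boxes and oppose BMAL1 and CLOCK. Bhlhe40 (DEC1) had levels of 10.19, 9.87, 10.23 and 9.96 in NCOR KO livers, against 10.24, 10.01, 10.55 and 10.39 in WT livers. NCOR KO replicates 2 and 4 were below every WT liver, and the others were within the WT range. Its change was -0.24 ± 0.12 (SE, limma adjusted p = 0.372, 95% interval -0.50 to 0.03). Bhlhe41 (DEC2) had levels of 5.93, 6.07, 6.29 and 5.69 in NCOR KO livers, against 6.36, 5.79, 6.15 and 6.13 in WT livers. The groups overlapped, and its change was -0.11 ± 0.14 (SE, limma adjusted p = 0.737, 95% interval -0.42 to 0.20).

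Among the other direct outputs, Ciart encodes a repressor of BMAL1 and CLOCK also known as CHRONO. Its level was 10.11, 9.88, 10.18 and 9.81 in NCOR KO livers, against 9.52, 10.20, 10.10 and 10.01 in WT livers. WT replicate 1 was the lowest of the 8, and all NCOR KO values fell within the WT range. The change was 0.04 ± 0.14 (SE, limma adjusted p = 0.924, 95% interval -0.28 to 0.35), and its sign turned in 4 of 16 alternative settings.

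Usp2, a deubiquitinase gene driven by the clock, had levels of 10.47, 10.25, 10.34 and 10.32 in NCOR KO livers, against 10.39, 10.57, 10.60 and 10.63 in WT livers. NCOR KO replicates 2 to 4 were below every WT liver, and NCOR KO replicate 1 lay between WT replicate 1 and the rest. The change was -0.20 ± 0.07 (SE), with a 95% interval of -0.36 to -0.04 and an unadjusted limma p of 0.0199, and it did not pass after adjustment (limma adjusted p = 0.215). The exact two-sided permutation p was 0.0571. Its sign was the same in all 16 alternative settings, at -0.25 to -0.17.

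Wee1, the kinase that holds back entry into mitosis, and Nampt, the rate-limiting enzyme of NAD salvage, link the clock to cell division and to NAD supply. Wee1 had levels of 8.92, 8.76, 8.62 and 9.10 in NCOR KO livers, against 9.12, 8.59, 9.43 and 9.14 in WT livers. All NCOR KO values lay within the wide WT range, and the change was -0.22 ± 0.16 (SE, limma adjusted p = 0.541, 95% interval -0.58 to 0.14). Nampt had levels of 10.26, 10.12, 10.01 and 10.34 in NCOR KO livers, against 10.26, 10.04, 10.46 and 10.23 in WT livers. Its groups overlapped as well, and the change was -0.06 ± 0.10 (SE, limma adjusted p = 0.797, 95% interval -0.28 to 0.16).

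Within groups, Wee1 and Nampt moved together from liver to liver. In both genes WT replicate 3 was the highest WT liver and WT replicate 2 the lowest, and NCOR KO replicate 4 was the highest NCOR KO liver and NCOR KO replicate 3 the lowest. The Pearson correlation of their deviations from the group means was 0.963 over 8 arrays (Spearman 0.929). It was 0.963 again without the 2 arrays farthest from the median of Wee1, and 0.947 to 0.976 with any 1 array left out. This was the highest of 45 pairs of clock output genes, whose median was 0.03, and the pairs were described without a test. The 8 points share the arrays and their normalization.

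A second set that varied together held Hlf, Ciart and Usp2, with correlations of 0.828 between Hlf and Ciart, 0.825 between Hlf and Usp2 and 0.780 between Ciart and Usp2 over the 8 arrays. WT replicate 1 was the lowest WT liver in all 3 genes. Without the 2 arrays farthest from the median of the first gene of each pair the values were 0.641, 0.483 and 0.487. Spearman correlations of the same pairs were 0.619, 0.857 and 0.548. Dbp and Tef varied together (0.602, Spearman 0.667, and 0.674 without 2 arrays).

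Nfil3 ran against Tef and Dbp in deviations from the group means over the 8 arrays. The correlation was -0.69 with Tef (Spearman -0.52) and -0.58 with Dbp (Spearman -0.64). With Hlf, the third PAR bZIP gene, Nfil3 went the other way, at 0.30 (Spearman 0.43). Hlf also ran against Dbp (-0.61, Spearman -0.74) and Tef (-0.47, Spearman -0.40), so the PAR bZIP genes did not vary as 1 set. Over both groups, the correlation with Tef was -0.17 without the 2 arrays farthest from the median of Nfil3 and so rests on them. The same step gave -0.77 with Dbp. Among the NCOR KO livers, replicates 1 and 2 had the highest Nfil3 and the lowest Dbp. Likeness of deviations over the 8 arrays was searched among the 11090 genes at or above the median level. Closest to Dbp were Pla1a, a phospholipase gene (0.991), Emc6 (0.982) and Agpat1 (0.981). Closest to Tef were Slc23a2, an ascorbate transporter gene (0.981), Mre11a, a DNA repair gene (0.979), and Fgd6 (0.969). These values are the highest of a large search over 8 arrays and were not tested. Pla1a also fell in NCOR KO livers, by 0.43 ± 0.08 (SE, limma adjusted p = 0.0348, lost in 7 of 16 alternative settings), and the other 5 did not pass.

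**Figure D3:**
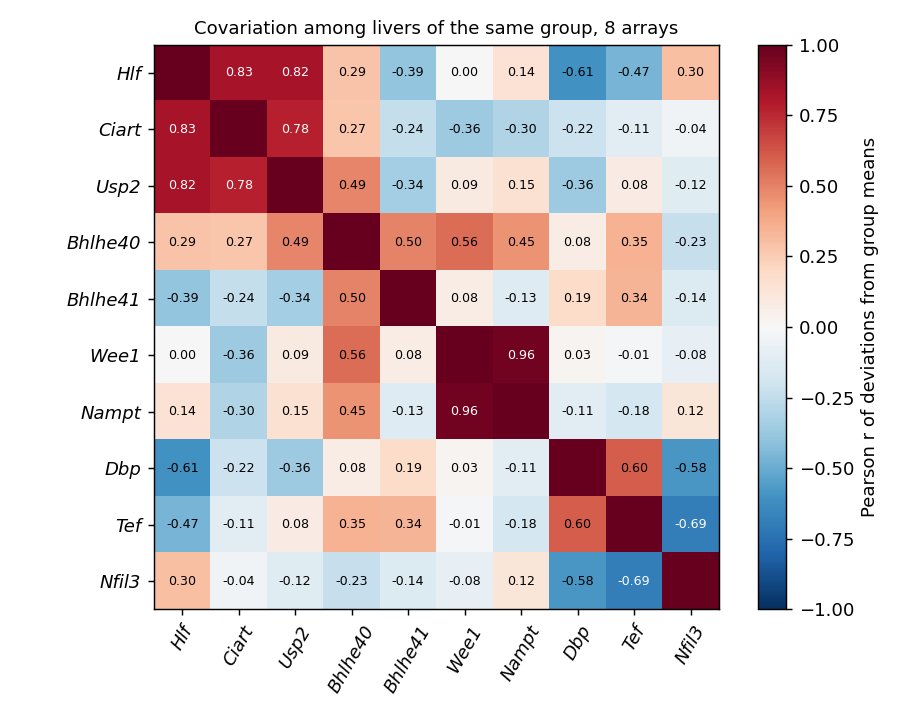
Pearson correlation of the deviations from the group means over 8 arrays for all 45 pairs of clock output genes; red is positive and blue negative, and the diagonal is 1. Wee1 with Nampt (0.96) is the strongest pair, and Hlf, Ciart and Usp2 form a block of 0.78 to 0.83. Nfil3 is negative with Tef (-0.69) and Dbp (-0.58) and positive with Hlf (0.30), while Hlf is negative with Dbp (-0.61).

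The core clock genes that drive these outputs were set beside them. Of 10 measured, 2 rose, 0 fell and 8 did not pass, with a median change of 0.03. Arntl, the gene of BMAL1, was at 8.07, 8.13, 8.07 and 8.02 in NCOR KO livers, against 6.19, 6.61, 6.43 and 5.999 in WT livers. All NCOR KO values were far above the WT values, and WT replicate 4, the lowest WT liver for Nfil3, was also the lowest for Arntl. The change of Arntl was 1.77 ± 0.11 (SE, limma adjusted p = 5.83e-05), and Clock rose by 0.44 ± 0.08 (SE, limma adjusted p = 0.0317), a call lost in 7 of 16 alternative settings. Nr1d1, the gene of REV-ERBα, was at 0.43 ± 0.18 (SE, limma adjusted p = 0.274). Per3, a clock repressor gene, was at -0.51 ± 0.17 (SE, limma adjusted p = 0.190).

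Liver genes reported to depend on PAR bZIP factors were measured in 9 of 10 cases. Of these 2 rose, 0 fell and 7 did not pass, and the median change was 0.18. The risers were the cytochrome P450 genes Cyp2a5 (0.74 ± 0.15 SE, limma adjusted p = 0.0381) and Cyp2a4 (0.74 ± 0.14 SE, limma adjusted p = 0.0355), near-identical copies whose probe sets may share signal and whose calls were lost in 7 and 8 of 16 alternative settings. Of 5 C/EBP factors, bZIP relatives that can bind D-box-like sites, Cebpa fell by 0.35 ± 0.06 (SE, limma adjusted p = 0.0158, lost in 5 of 16 alternative settings), 0 rose and 4 did not pass.

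Around Nampt, 16 genes of NAD synthesis, salvage and use were measured, of which 1 fell, 0 rose and 15 did not pass, with a median change of -0.09. The one that fell was Nnmt, which methylates nicotinamide and so takes it out of salvage. Nnmt was at 8.66, 8.40, 8.09 and 8.01 in NCOR KO livers, against 9.24, 9.14, 9.13 and 8.96 in WT livers. All NCOR KO values were below all WT values, and the change was -0.83 ± 0.13 (SE), 1.78-fold lower (limma adjusted p = 0.0144). Around Wee1, 8 genes of entry into mitosis were measured and 8 did not pass. The largest change among them was that of Ccnb2, a mitotic cyclin gene, at 0.19 ± 0.12 (SE, limma adjusted p = 0.473).

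**Figure D4:**
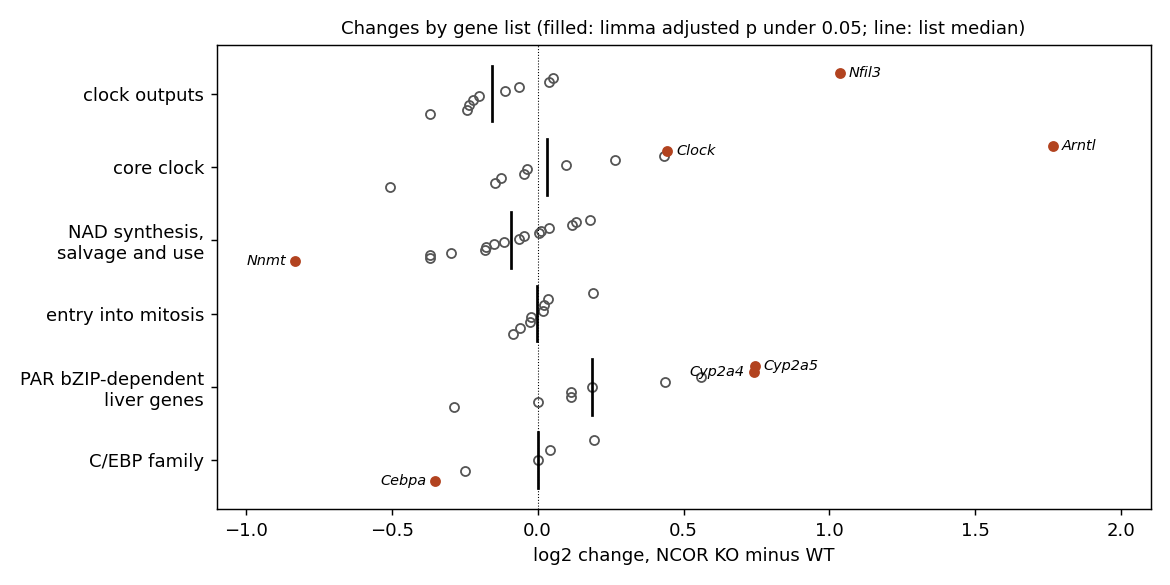
Change of every measured gene (circles, NCOR KO minus WT, log2 scale) in the clock output genes and in 5 gene lists set beside them; filled circles passed a limma adjusted p of 0.05 and are named, and vertical lines are list medians. Nfil3 is the filled circle among the clock outputs, beside Arntl and Clock in the core clock and Nnmt in the NAD list.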

How the data were processed

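Total RNA of 8 livers was hybridised to single-colour Affymetrix Mouse Gene 2.0 arrays. The authors deposited 1 linear intensity per probe set and array. RMA and Partek are named in the submitters' processing notes, with no role or version, and build and filters are not given in the sources used here. The log2 of each intensity was used with no further normalization. Of 41345 probe sets, 16010 had no gene and 1814 several, and these were left out. The brightest probe set per gene by mean over 8 arrays was kept.

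NCOR KO was compared with WT by limma 3.58.1 on R 4.3.3 (lmFit and eBayes, intercept and group), with Benjamini-Hochberg adjustment over 22180 genes, after a check on simulated data. Alternatives were 2 other scalings, array weights, trend and robust variance, a filter on dim genes, the mean of probe sets, single probe sets, the replicate block, a threshold of 0.1 and single arrays left out. One alternative, leaving out WT replicate 2 with NCOR KO replicate 1, was added after the values were seen.

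The clock output genes and lists were chosen with earlier results of these data known. Named by rule were the 10 clock output genes, up to 4 called genes per list (or the 1 with the largest change), Arntl, Nr1d1 and Per3, and the 3 genes most like Nfil3, Dbp and Tef. Markers named beside Nfil3 were chosen after their values were seen. Of the listed genes and markers, 8 were not analysed here.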

Additional observations from a re-analysis of the deposited data

Results flagged for a closer look

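Nfil3 in WT replicate 4, at a log2 intensity of 7.30, lay apart from the other 3 WT livers, the nearest of which was at 7.77. The gap was 0.929 of the range of the WT group, above Dixon's 95% critical value for 4 samples. It was 1 of 20 groups examined (10 genes in 2 groups), and chance flags about 1 group in 20. Without this array Nfil3 was higher in NCOR KO livers by 0.91 with a limma adjusted p of 0.00343.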

How the results depend on the processing

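Nfil3 passed under each of the 16 alternatives, with changes of 0.91 to 1.09, and Dbp, Hlf, Bhlhe40, Bhlhe41, Ciart, Usp2, Wee1 and Nampt passed under none. The count of clock output genes past the threshold was 2, Nfil3 and Tef, in place of 1 with each array centred on its median, with genes dimmer than the median gene left out, and at a threshold of 0.1. For Tef the dimmer probe set turned the direction (0.075, against -0.37). With single arrays left out the limma adjusted p of Tef was 0.0715 to 0.171, at changes of -0.42 to -0.31. Over all genes the count past the threshold was 366 (181 higher, 185 lower). It was 551 with those dimmer genes left out, 807 at a threshold of 0.1, 202 without WT replicate 2 and NCOR KO replicate 1, and 120 to 297 with single arrays left out. Centring arrays on their medians gave 147 higher and 383 lower. Replicate numbers were shared between groups, but same-numbered livers did not deviate together (correlations of -0.09 to 0.02 over genes), so the numbers were not taken as pairs. With the replicate block 155 genes passed, Nfil3 being the 1 clock output gene among them. With 4 livers per group, the small changes of Dbp, Bhlhe40 and Wee1 were 0.81, 1.02 and 0.63 times the larger group SD. The second Tef probe set lay below the median gene level, and why it differed from the brighter one was not tested.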
